A study of Mus musculus with 16 samples.

Results

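The 10 genes followed here belong to the p53 pathway and were measured in 8 mouse leukemic cell lines. They are Trp53 itself, its regulators Mdm2, Mdm4 and Atm, and the targets Ccng1, Phlda3, Zmat3, Tnfrsf10b, Aen and Trp53inp1. They were chosen by name and all 10 were found among the 50686 gene identifiers of the count tables. The cell lines were bone marrow cells of C57BL/6N mice transformed with retroviral BCR-ABL1p185, the fusion kinase of Philadelphia-positive acute lymphoblastic leukemia. Of these lines, 4 were Cdk8 fl/fl without a recombinase (labelled wildtype and called wild-type here) and 4 were Cdk8Δ/Δ Vav-Cre (Cdk8-deficient), in which Cre is driven by a promoter active in hematopoietic cells. Each line was treated for 48 h with DMSO or with 1 µM of Senexin B, an inhibitor of the kinases CDK8 and CDK19, which gave 16 RNA-seq libraries. The lines were derived individually, and replicate numbers stand for lines: line 1 of one genotype and line 1 of the other are different lines. The labels do not say whether lines of the same number were handled together, and this was not tested.

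p53 is a transcription factor that is kept low by MDM2, a ubiquitin ligase that it induces itself, and by the related MDM4. DNA damage signals through the kinase ATM, and oncogenic kinases through the ARF product of Cdkn2a, release p53 from MDM2. p53 then induces genes of cell cycle arrest, DNA repair and apoptosis, and loss of this response is a known step in leukemia driven by BCR-ABL1. mRNA of the targets is often used as a readout of p53 activity because the p53 protein is controlled mainly after translation.

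The libraries held between 13145876 and 18349425 reads counted on genes. All 10 markers of pro-B and pre-B cells were above 1 CPM (counts scaled to the size of the library) in the mean of the libraries, with summed levels of 6011 to 9282 CPM, whereas none of 6 T-cell markers and 2 of 8 myeloid markers (Lyz2 and Cd68) were. Of 4 mature B-cell markers, Ighd and Cr2 were above 1 CPM (summed levels 12.9 to 74.3 CPM), and of 5 stromal and endothelial markers Pecam1, which leukocytes also express, was (48.5 to 493 CPM). Elane, S100a8 and S100a9 had no count in any library. Summed myeloid levels were 7.68 to 15.04 CPM in wild-type and 9.24 to 33.5 CPM in Cdk8-deficient DMSO libraries, and 8.21 to 14.5 CPM with Senexin B. The part of these other cell type markers in the results was not tested. As bulk RNA was measured, a smaller share of expressing cells and less RNA per cell cannot be told apart. Cdk8 reached 67.3, 62.9, 64.7 and 66.3 CPM in the wild-type DMSO libraries (lines 1 to 4) and 35.4, 50.5, 47.3 and 42.3 CPM in the Cdk8-deficient ones. These levels did not overlap, but counts over the whole gene also include reads from exons outside the deletion and therefore check the genotype only in part. With Senexin B, Cdk8 was 89.4, 56.0, 57.5 and 54.9 CPM in wild-type lines and 44.4, 60.3, 43.1 and 40.8 CPM in Cdk8-deficient lines, where line 2 lay above 3 of the wild-type lines.

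Sequences with the p53 half-site, the standard degenerate decamer of which a full p53 site holds a pair, were looked for in the RefSeq promoter windows (GRCm38.p6, 250 bases before to 50 after a transcription start). The decamer was searched without mismatch, and since it is its own reverse complement each match lies on both strands. Windows were given for 7 of the 10 genes, not for Zmat3, Tnfrsf10b or Trp53inp1. Of these 7, 4 held a half-site, compared with 9.55% of 27025 genes with a window (8.36% of 32851 windows). These matches are shown because they include the gene that encodes p53, its main inhibitor and the targets Ccng1 and Aen, with the half-site in capitals and 10 bases on either side, 5′ to 3′ on the strand of the gene.
Trp53 (chr11:69580274-69580303, plus strand): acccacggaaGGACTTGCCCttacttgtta
Mdm2 (chr10:117710925-117710954, minus strand): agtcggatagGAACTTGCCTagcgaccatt
Ccng1 (chr11:40755452-40755481, minus strand): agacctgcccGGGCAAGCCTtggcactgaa
Aen (chr7:78895927-78895956, plus strand): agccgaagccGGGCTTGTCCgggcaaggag
Counted from the transcription start, the first base of the half-site lies at -75 in Trp53, -186 in Mdm2, -185 in Ccng1, and at 11 or -121 from the 2 starts given for Aen. No window of the 10 genes held a pair of half-sites without mismatch and with 0 to 13 bases between them, which 0.0731% of all windows did. Pairs in which a half-site holds a mismatch were not searched for, so this does not show that a full site is absent. Phlda3, Atm and both windows of Mdm4 held no match. Of 36 other known p53 targets, 29 had a window and 10 of these held a half-site (Cdkn1a, Gadd45a, Gtse1, Bax, Ei24, Siva1, Polk, Sesn1, Pml and Rps27l). Cdkn1a also held a pair. A match describes these letters only and is not a measured binding site.

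Per length of annotated exon, Trp53 was the most abundant of the 10 transcripts with 105.2 CPM per kilobase in the mean of 16 libraries. It was followed by Ccng1 with 36.2, Mdm2 with 19.2, Trp53inp1 with 16.9, Mdm4 with 10.01, Atm with 7.28, Zmat3 with 5.23, Aen with 4.70, Phlda3 with 2.60 and Tnfrsf10b with 1.29 CPM per kilobase. The ranges over the libraries overlapped for each pair of neighbours in this order, also for Trp53 (55.4 to 161) and Ccng1 (21.0 to 76.4), and the range of Zmat3 (0.746 to 17.8) spanned those of Atm and Aen. No exon base of the 10 genes is shared with another annotated gene.

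The clearest variation was between individual cell lines. Zmat3, an RNA-binding zinc finger protein and p53 target (chr3:32334792-32366014, minus strand), was at 17.9, 67.6, 22.9 and 132 CPM in lines 1 to 4 of the wild-type DMSO group. In the Cdk8-deficient DMSO group it was at 21.4, 19.2, 39.4 and 203 CPM. Line 4 was thus the highest in both genotypes, and the remaining 6 lines lay at or below 67.6 CPM. With Senexin B, Zmat3 was at 14.98, 30.9, 22.3 and 150 CPM in wild-type lines and 17.6, 8.53, 19.3 and 170 CPM in Cdk8-deficient lines, so that both libraries of these 2 lines stood above all other libraries. The highest DMSO line exceeded the lowest 11.4-fold (95% counting interval 10.1 to 12.8), and 10.8% of 12532 expressed genes had a larger ratio.

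Phlda3, which encodes an inhibitor of AKT signalling induced by p53 (chr1:135766119-135769136, plus strand), was at lower levels. It was at 1.92, 5.44, 1.15 and 6.50 CPM in wild-type DMSO libraries and at 0.188, 1.22, 1.02 and 16.02 CPM in Cdk8-deficient ones. The respective values with Senexin B were 1.44, 5.29, 1.03 and 8.19 CPM, and 0.233, 0.269, 1.04 and 13.8 CPM. Line 4 was again the highest of each group. Cdk8-deficient line 1 held 3 reads of Phlda3 in DMSO and line 4 held 220, a ratio of 85.4 with a counting interval of 28.8 to 417.

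Ccng1, which encodes cyclin G1, a partner of protein phosphatase 2A that acts on MDM2 (chr11:40748552-40755311, minus strand), reached 80.3, 135, 94.0 and 163 CPM in the wild-type DMSO libraries. It reached 117, 86.7, 101 and 268 CPM in the Cdk8-deficient DMSO libraries. With Senexin B the values were 74.7, 112, 124 and 186 CPM, and 108, 73.8, 76.3 and 234 CPM. Line 4 was the highest in each of the 4 groups, and Cdk8-deficient line 4 lay above all other lines. The ratio of the highest to the lowest DMSO line was 3.34.

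Aen, an exonuclease that degrades DNA in p53-dependent apoptosis, varied less. It was at 22.5, 26.2, 26.2 and 27.8 CPM in wild-type and at 13.1, 22.9, 22.6 and 37.7 CPM in Cdk8-deficient DMSO libraries. With Senexin B it was at 28.4, 24.8, 33.0 and 33.2 CPM in wild-type lines and at 23.7, 30.7, 26.7 and 36.5 CPM in Cdk8-deficient lines. Line 4 was highest in all groups here as well, by a margin of under 1 CPM over line 3 in the wild-type Senexin B libraries.

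The death receptor gene Tnfrsf10b and Trp53inp1, a regulator of p53-driven apoptosis and autophagy, did not share this order throughout. Tnfrsf10b was at 1.13, 2.24, 3.84 and 10.2 CPM in wild-type DMSO libraries and at 0.125, 4.74, 8.61 and 4.44 CPM in Cdk8-deficient ones, where line 3 was the highest and line 1 held 2 reads. The ratio of highest to lowest line was 81.8, with a counting interval of 22.3 to 682. With Senexin B Tnfrsf10b was at 2.38, 1.95, 5.64 and 5.82 CPM in wild-type and 0.291, 4.70, 5.31 and 4.08 CPM in Cdk8-deficient lines. Trp53inp1 was at 147, 112, 65.0 and 121 CPM in wild-type and 172, 138, 129 and 81.2 CPM in Cdk8-deficient DMSO libraries, so that Cdk8-deficient line 4 was here the lowest of its group. With Senexin B the values were 28.2, 64.5, 73.9 and 180 CPM, and 62.5, 103, 120 and 158 CPM, and line 4 was the highest of both groups.

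**Figure D1:**
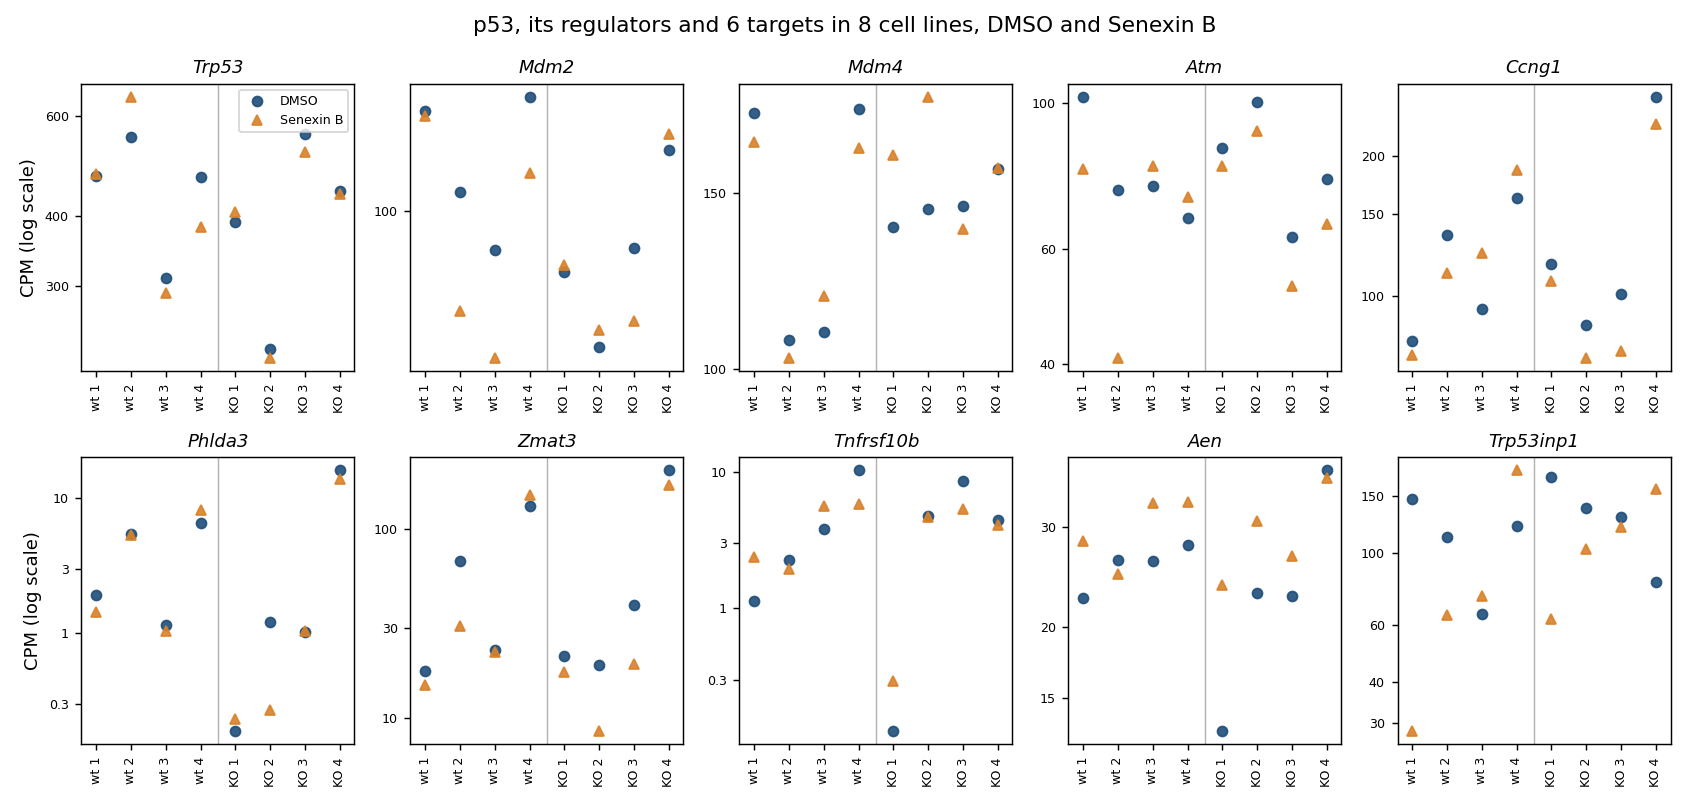
Level of each of the 10 genes in CPM (log axis, a separate range in each panel) in 4 wild-type (wt 1 to 4) and 4 Cdk8-deficient (KO 1 to 4) lines; circles are DMSO and triangles Senexin B libraries, 1 library each. Zmat3, Phlda3 and Ccng1 are highest in line 4 of both genotypes with either treatment, whereas Trp53 is lowest in KO 2.

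The p53 gene and its regulators were more even. Trp53 was at 470, 552, 311 and 469 CPM in wild-type DMSO libraries and at 391, 232, 557 and 442 CPM in Cdk8-deficient ones. Its values with Senexin B were 474, 650, 292 and 382 CPM, and 406, 224, 519 and 438 CPM. Cdk8-deficient line 2 was the lowest and the highest was Cdk8-deficient line 3 in DMSO (ratio 2.40), so the lines with the highest target levels had neither the most nor the least Trp53 mRNA.

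Mdm2, at once inhibitor and target of p53, was at 126, 104, 91.4 and 130 CPM in wild-type and 86.9, 73.2, 91.9 and 115 CPM in Cdk8-deficient DMSO libraries. With Senexin B it was at 124, 79.5, 71.4 and 109 CPM, and 88.3, 76.1, 77.6 and 119 CPM. Line 4 was the highest in 3 of the 4 groups. Mdm4, the partner of MDM2, was at 180, 107, 109 and 182 CPM in wild-type and 139, 145, 146 and 159 CPM in Cdk8-deficient DMSO libraries, and at 169, 103, 118 and 166 CPM and 164, 187, 138 and 159 CPM with Senexin B. Atm, the kinase activated by DNA double-strand breaks, was at 102, 73.9, 74.9 and 66.9 CPM and 85.4, 100.5, 62.5 and 76.7 CPM in DMSO, and at 79.5, 40.9, 80.2 and 71.9 CPM and 80.3, 90.6, 52.6 and 65.4 CPM with Senexin B. The ratio of highest to lowest DMSO line was 1.77 for Mdm2, 1.71 for Mdm4 and 1.64 for Atm, compared with a median of 2.01 over 12532 genes. Of the 10 genes, 7 had a ratio over 2, as did 50.2% of all genes.

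The mean over the 6 targets of log2(CPM + 1), centred on the mean of each gene over 16 libraries, was 1.09 in Cdk8-deficient line 4 and 0.92 in wild-type line 4 (mean of the 2 libraries of a line). It was 0.085 in wild-type line 2, -0.0835 in Cdk8-deficient line 3, -0.248 in wild-type line 3, -0.393 in Cdk8-deficient line 2, -0.573 in wild-type line 1 and -0.798 in Cdk8-deficient line 1. These 2 lines held the highest level of all 6 targets, Cdk8-deficient line 4 for 4 and wild-type line 4 for 2 of them. Over 12557 expressed genes, they held the highest level of 12.8% and 9.41%, respectively. The 6 genes enter this mean together and are a chosen list, so the order of the lines is a description.

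**Figure D2:**
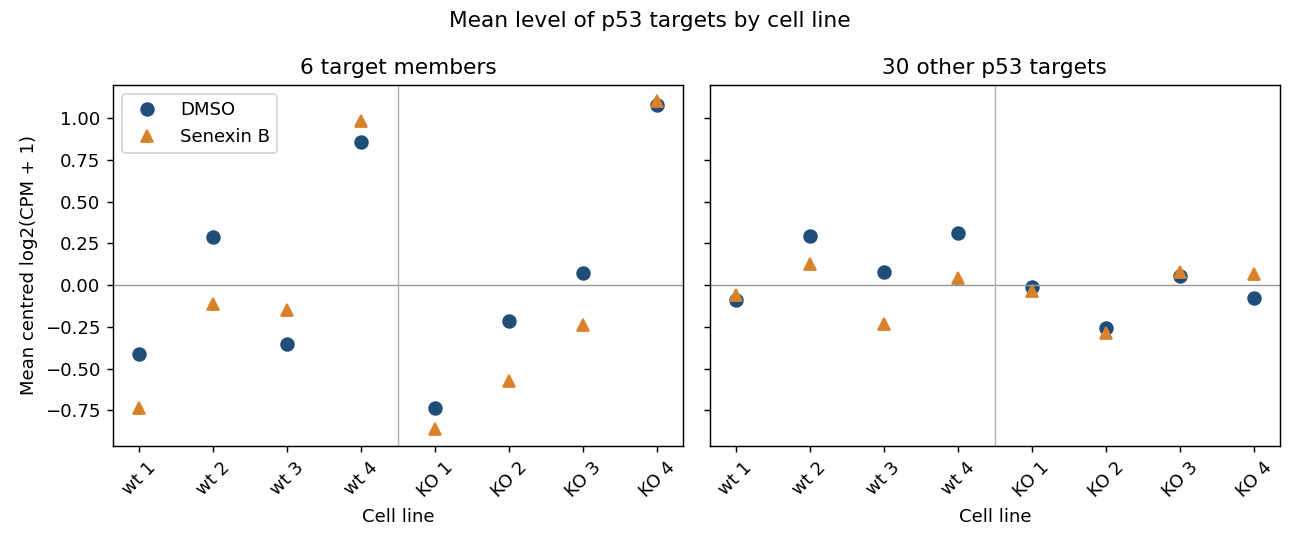
Mean over p53 targets of log2(CPM + 1), centred per gene, for each line (wt, wild-type; KO, Cdk8-deficient); circles are DMSO and triangles Senexin B libraries. Line 4 of both genotypes stands above the other lines for the 6 targets on the left and not for the 30 other targets on the right.

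The wider set of known targets did not show this order as a whole. Among the 36 other targets, 30 were expressed at 1 CPM or more, and their mean was 0.177 in wild-type line 4 and -0.0061 in Cdk8-deficient line 4, with 0.209 in wild-type line 2 as the highest. Cdk8-deficient line 4 held the highest level of 7 and the lowest level of 8 of these 30 genes. Wild-type line 4 held the highest level of 5 and the lowest level of 1. Its DMSO library had the highest mean of all 16 libraries (0.309), and its Senexin B library was at 0.0443. Bax, the effector of mitochondrial apoptosis, was one that followed the 6 targets with 30.04, 48.6, 42.8 and 72.0 CPM in wild-type and 34.0, 37.5, 47.8 and 82.9 CPM in Cdk8-deficient DMSO libraries. Bbc3, which encodes the BH3-only protein PUMA, was at 5.60, 24.6, 13.1 and 31.7 CPM and 6.32, 8.27, 12.1 and 15.2 CPM. Eda2r, a receptor of the same family as Tnfrsf10b, had at most 1 read in any library except those of Cdk8-deficient line 4, which held 4 each.

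The largest differences between DMSO lines among the other targets were found for Fas, Plk2, Gadd45a, Sesn2 and Bbc3. Fas, a death receptor, had no read in Cdk8-deficient line 4 and 67 in wild-type line 2, which was at least 19.6-fold higher against a floor of 3 reads; the lower counting limit of this ratio was 15.5. Plk2, a polo-like kinase, was highest in wild-type line 4 and lowest in Cdk8-deficient line 1 (ratio 14.1, counting interval 6.19 to 39.7). Gadd45a, a stress-induced gene of growth arrest, was highest in wild-type line 4 and lowest in wild-type line 1 (ratio 12.7). Sesn2, an inhibitor of mTOR complex 1 that is induced by p53 and by other stress, was highest in wild-type line 2 and lowest in Cdk8-deficient line 4 (ratio 6.03), and Bbc3 had a ratio of 5.66.

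Genes with the pattern most like that of the 6 targets were ranked by Pearson's r over the 8 lines among 12547 genes. They were Cd276 (r = 0.991), Ppia, Chtf18, Opn3, Aldh16a1, Bax, Gm6043, Spsb3, Cdc6 and ENSMUSG00000081123.1 (r = 0.96). Only Bax was among the listed p53 genes. Cd276, which encodes the immune checkpoint protein B7-H3, had 9.74 CPM in Cdk8-deficient line 4, 5.19 CPM in wild-type line 4 and at most 1.23 CPM in the other lines. Ppia, cyclophilin A, ranged from 52.5 to 83.7 CPM only and has processed copies elsewhere in the genome, so its counts are uncertain. Of the listed targets Xpc, which recognizes damaged bases in DNA repair, ran most against the 6 targets (r = -0.928). The other expressed targets of the wider list ran both ways, from Rps27l (r = 0.825), Bid (0.786) and Gtse1 (0.77) to Ercc5 (-0.687) and Rrm2b (-0.704). Each r describes 8 lines that share their libraries with the genes ranked.

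Cdkn2a, which encodes p16INK4A and p19ARF, was nearly silent in 1 line. It was at 126, 148, 145 and 7.84 CPM in wild-type DMSO libraries and at 198, 117, 145 and 112 CPM in Cdk8-deficient ones. With Senexin B the values were 122, 167, 120.5 and 9.72 CPM, and 152, 105, 142 and 75.3 CPM. Wild-type line 4 thus had low Cdkn2a mRNA with both treatments and Cdk8-deficient line 4, the lowest of its genotype, kept at least 75.3 CPM. Both lines had high Zmat3, Phlda3 and Ccng1. Trp63, the p53 family gene of epithelia, was at 11.1 and 12.9 CPM in wild-type line 2 (DMSO and Senexin B) and at most 0.893 CPM in the other 14 libraries. Trp73 stayed at or below 0.192 CPM.

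**Figure D3:**
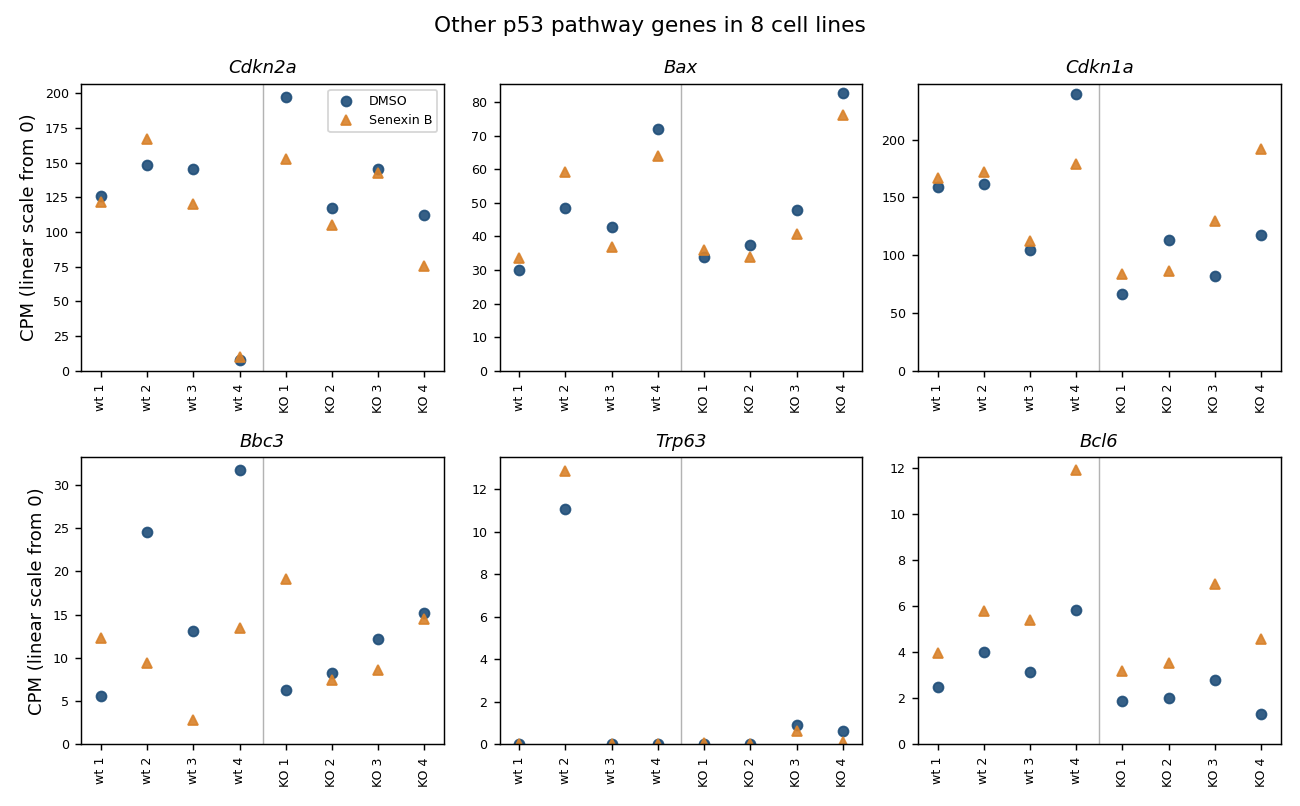
Level in CPM (linear axis from 0) of 6 further p53 pathway genes in wild-type (wt) and Cdk8-deficient (KO) lines; circles are DMSO and triangles Senexin B libraries. Cdkn2a is low in wt 4 alone (7.84 and 9.72 CPM), Trp63 is high in wt 2 alone, and Bcl6 is higher with Senexin B in all 8 lines.

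Loss of CDK8 was compared with the wild type in DMSO by edgeR's quasi-likelihood test, with calls at an adjusted p under 0.05 (Benjamini-Hochberg over all genes) and a fold change over 2. None of the 10 genes passed, and none had an unadjusted p under 0.05, where 1 (0.00759%) and 5.32% of 13174 genes did. Group means of Zmat3 were 60.1 ± 52.9 CPM (SD, n = 4) in wild-type and 70.9 ± 88.9 CPM (SD, n = 4) in Cdk8-deficient lines, a log2 fold change of 0.27 ± 0.92 (SE; edgeR adjusted p = 0.98). Phlda3 differed by 0.33 ± 1.19, Ccng1 by 0.31 ± 0.39, Trp53inp1 by 0.24 ± 0.29 and Tnfrsf10b by 0.07 ± 0.99. Aen differed by -0.06 ± 0.29, Trp53 by -0.13 ± 0.27, Mdm2 by -0.28 ± 0.17, Mdm4 by 0.04 ± 0.21 and Atm by 0.06 ± 0.20. The standard errors of Zmat3, Phlda3 and Tnfrsf10b were the largest, and 2 standard errors on either side of these estimates took in the fold limit in both directions. The median of the 10 log2 fold changes was 0.07 (0.002 over all genes), and the groups overlapped for all 10 (2.95% of genes did not).

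The direction of several genotype differences rested on single lines. Without Cdk8-deficient line 4, the log2 fold change was -2.17 for Phlda3 (unadjusted p = 0.0334, edgeR adjusted p = 0.958), -1.15 for Zmat3 and -0.19 for Ccng1, and 2 of the 10 genes (Phlda3 and Mdm2) had an unadjusted p under 0.05, as did 4.41% of all genes in that fit. Without wild-type line 4, it was 0.99 for Zmat3, 0.72 for Phlda3 and 0.49 for Ccng1. Mdm2 stayed lower (-0.41 to -0.20) and Trp53inp1 higher (0.044 to 0.42) whichever library was left out.

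Among the 36 other targets, 30 were tested and none passed the limits in DMSO, while 1 was higher and 5 were lower in Cdk8-deficient lines at an unadjusted p under 0.05 (2.38% and 2.94% of all genes). The lower genes were Ddit4 (log2 fold change -0.92, unadjusted p = 0.0032), Rrm2b (-0.61), Plk2 (-1.50), Cdkn1a (-0.78) and Sesn2 (-1.07), each with an adjusted p of 0.897 by edgeR. Ddit4 and Sesn2 restrain mTOR complex 1, Rrm2b supplies nucleotides for repair, and Cdkn1a encodes the CDK inhibitor p21. Ddit4 was at 68.9, 135, 84.9 and 117 CPM in wild-type and 59.0, 58.0, 54.3 and 39.4 CPM in Cdk8-deficient DMSO libraries, and its groups did not overlap. Plk2 did not overlap either, with 3.14 to 5.30 CPM in wild-type and 0.375 to 2.87 CPM in Cdk8-deficient DMSO libraries. The groups did not overlap for 2 of the 30 targets in DMSO (2.95% of all genes) and for 0 of 30 with Senexin B (1.02%). Cdkn1a was at 159, 162, 105 and 240 CPM in wild-type and 66.4, 113, 82.4 and 118 CPM in Cdk8-deficient DMSO libraries, which overlapped. The higher gene was Gtse1, a negative regulator of p53 in the G2 phase (0.39). By group, 3 of 8 arrest genes, 0 of 9 apoptosis genes, 1 of 6 repair genes and 2 of 7 metabolism genes had an unadjusted p under 0.05. Of 16 other regulators, Trp53bp1, a DNA damage adaptor of p53, was higher (0.39) and the repressor Bcl6 lower (-0.92) at this level.

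With Senexin B in both genotypes, none of the 10 genes passed the limits or had an unadjusted p under 0.05 (1.55% of 13010 genes), nor did any of the 16 regulators or of 30 tested targets. The median log2 fold change of the 10 genes was -0.02, and the groups overlapped for all of them (1.02% of genes did not). Trp53inp1 had the largest difference with 0.36 ± 0.52 (SE). Zmat3 differed by -0.02 ± 1.06 and moved to -1.85 without Cdk8-deficient line 4 and to 1.25 without wild-type line 4, and Phlda3 was at -2.93 without Cdk8-deficient line 4 (unadjusted p = 0.0153, edgeR adjusted p = 1), a fit in which 2.12% of all genes had an unadjusted p under 0.05. Trp53inp1 was at 1.01 without wild-type line 4 (unadjusted p = 0.0421, edgeR adjusted p = 1), where 2.55% of all genes did.

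**Figure D4:**
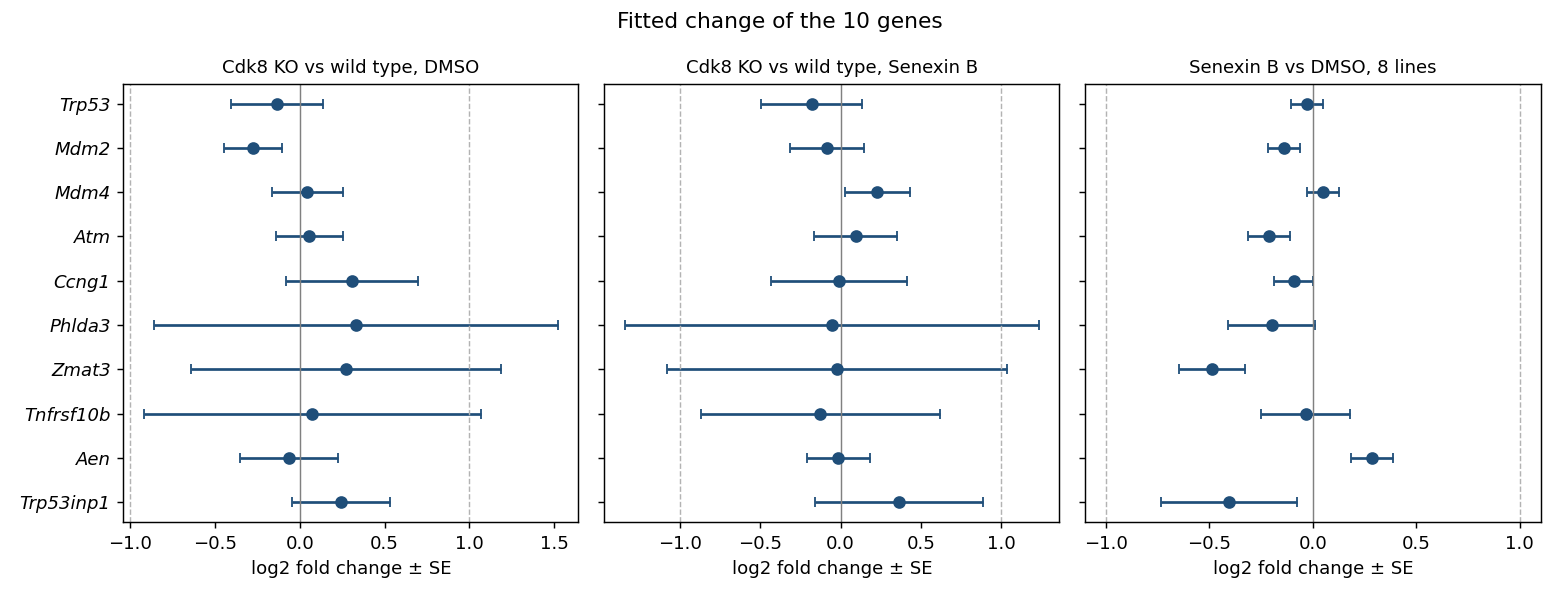
Fitted log2 fold change and standard error of the 10 genes for Cdk8-deficient (KO) against wild-type lines in DMSO (left) and with Senexin B (middle), and for Senexin B against DMSO within 8 lines (right); dashed lines mark the fold limit of 2. No gene passed the limits, and Zmat3 at -0.49 is the lowest and Aen at 0.29 the highest on the right.

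Senexin B was compared with DMSO within the 8 lines, with the line as a block, to see whether kinase inhibition alters the pathway. None of the 10 genes passed the limits, which 134 of 14164 genes (0.946%) did. Zmat3 and Aen had an unadjusted p under 0.05, as did 16.4% of all genes, so that 2 of 10 is near the background. Zmat3 was lower by a log2 fold change of -0.49 ± 0.16 (SE; edgeR adjusted p = 0.141), in 7 of 8 lines, with wild-type line 4 as the exception. Aen was higher by 0.29 ± 0.10 (edgeR adjusted p = 0.176) in 6 of 8 lines. The log2 fold changes were -0.21 for Atm, -0.14 for Mdm2, -0.09 for Ccng1, -0.20 for Phlda3, -0.04 for Tnfrsf10b, -0.03 for Trp53 and 0.05 for Mdm4, each with a standard error of 0.08 to 0.22. Trp53inp1 differed by -0.41 ± 0.33 and its direction was opposite between lines, from 147 to 28.2 CPM in wild-type line 1 and from 81.2 to 158 CPM in Cdk8-deficient line 4. It was -0.14 without wild-type line 1, -0.24 without Cdk8-deficient line 1 and -0.60 without Cdk8-deficient line 4. None of the 10 genes moved one way in all 8 lines, as 4.53% of genes did.

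By genotype, none of the 10 genes passed the limits or had an unadjusted p under 0.05 for Senexin B in wild-type lines (3.8% of 12989 genes) or in Cdk8-deficient lines (1.83% of 13285 genes). With the line as a block, Zmat3 (-0.67, unadjusted p = 0.00583, edgeR adjusted p = 0.27) and Ccng1 (-0.25, unadjusted p = 0.0256, edgeR adjusted p = 0.404) had an unadjusted p under 0.05 in Cdk8-deficient lines and none did in wild-type lines (10.3% of genes in each genotype). None passed the limits, which 0.346% of genes in wild-type and 0.0527% in Cdk8-deficient lines did with the block. Mdm2 was lower in 4 of 4 wild-type lines, and Atm, Ccng1 and Zmat3 were lower in 4 of 4 Cdk8-deficient lines, where 17.7% and 19.1% of genes moved one way in all 4. Whether the change differed between genotypes was tested by the interaction, which no gene of the 10 passed (unadjusted p under 0.05 in 0.473% of 14164 genes). The interaction was -0.28 ± 1.52 (SE) for Zmat3 and -0.31 ± 0.62 for Ccng1, and -0.38 ± 0.31 and -0.31 ± 0.17 with the line as a block (edgeR adjusted p = 0.991 for both).

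Of the other pathway genes, Bcl6, a transcriptional repressor that restrains Trp53 in germinal center B cells, was higher with Senexin B in 8 of 8 lines, by a log2 fold change of 0.95 ± 0.15 (SE; edgeR adjusted p = 0.00919), just under the fold limit. It went from 2.49, 4.03, 3.13 and 5.86 CPM to 3.96, 5.78, 5.43 and 11.9 CPM in wild-type lines and from 1.88, 2.01, 2.81 and 1.31 CPM to 3.20, 3.56, 6.95 and 4.56 CPM in Cdk8-deficient lines. These levels rest on 18 to 156 reads a library. At an unadjusted p under 0.05, the checkpoint kinases Atr (0.32) and Chek1 (0.23) and the ribosomal gene Rpl5 (0.27), whose protein binds MDM2, were also higher. The counts of Rpl5 are uncertain, as they were low (88 to 248 reads), the gene has processed copies, and 26.7% of its exon bases are shared with Fam69a and Snord21. The acetyltransferase Ep300 (-0.26) and the targets Btg2 (-0.33), Ddb2 (-0.29) and Xpc (-0.32) were lower, with edgeR adjusted p values of 0.178 to 0.289 for these 7 genes. Ddb2 shares 23.8% of its exon bases with Acp2 on the opposite strand, and counting without regard to strand cannot assign reads of these shared bases to 1 gene. Over the 36 other targets, 30 were tested, 0 were higher and 3 lower at this level (7.79% and 8.61% of all genes). By genotype and without the block, Ep300 was lower in wild-type lines (-0.40) and Bcl6 higher in Cdk8-deficient lines (1.18) at an unadjusted p under 0.05. With the line as a block, Bcl6 was also higher in wild-type lines (0.78, unadjusted p = 0.00629, edgeR adjusted p = 0.247). With the block, 3 of 16 regulators and 1 of 30 targets had an unadjusted p under 0.05 in wild-type lines (10.3% of genes). In Cdk8-deficient lines 4 of 16 regulators and 4 of 29 targets did (10.3% of genes). These targets were Gadd45a (0.55), Plk2 (0.81), Sesn2 (0.53) and Rps27l (-0.30), with edgeR adjusted p values of 0.288 to 0.476. The regulators were Bcl6 (1.16), Atr (0.30), Hipk2 (-0.27) and Cdkn2a (-0.29). The interaction without the block was 0.36 ± 0.55 (SE) for Bcl6 and 0.305 ± 0.187 for Ep300, so no difference between genotypes was shown. Cdkn1a differed by 0.14 ± 0.13 (SE), Bax by -0.05 ± 0.08 and Bbc3 by -0.36 ± 0.38 within the 8 lines.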

How the data were processed

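Polyadenylated RNA of 16 cultures was sequenced as single-end reads of 50 bases. The authors trimmed reads with Trimmomatic, mapped them with STAR to GRCm38/mm10 and counted unique reads per gene with featureCounts 1.5.1 on GENCODE M13 without regard to strand; the deposited values are these raw counts. Groups were taken from the labels. Counts were fitted in edgeR 4.0.16 (R 4.3.3) with TMM, filterByExpr, the robust quasi-likelihood test and Benjamini-Hochberg adjustment over all genes tested, at an adjusted p of 0.05 and a fold change of 2. Only the libraries compared entered each fit, and all 16 entered the Senexin B comparison over 8 lines (line as a block) and the interaction. CPM are counts scaled by TMM library size over 16 libraries, and a standard error is the log2 fold change divided by the square root of F. For genotype, p-values measure the spread between lines, 1 library each. With the line as a block, they measure the spread of the change within lines. Where no block is named, the Senexin B fits by genotype and the interaction took the 2 libraries of a line as independent.

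The members, the lists of other genes and the tests were chosen with earlier results of these data known. Beside the 10 genes and Cdk8, named genes are Cdkn1a, Cdkn2a, Bax, Bbc3 and Eda2r, listed genes with an unadjusted p under 0.05 (at most 8 per comparison), the 5 other targets with the largest ratio between DMSO lines, and the 10 most alike genes. Libraries of the same genotype and number come from the same line, and their deviations from the group means correlated at 0.557 or more in wild-type and 0.765 or more in Cdk8-deficient lines, against -0.111 and 0.21 at most between numbers. No pair of the 120 library pairs was a copy (chi-square per gene of at least 23.4). Alternatives were DESeq2 1.42.0, RLE size factors, other filters (none, or a minimum of 10 counts), an adjusted p of 0.1 as limit, the replicate block, all 16 libraries in one fit, summed libraries, a pseudocount of 0.1 and leaving out each library or line. The fits were tested on simulated data. Counting intervals (95%, exact binomial) and the floor of 3 counts cover counting error only. Promoter windows are from RefSeq, GRCm38.p6, and figures were drawn with matplotlib 3.10.9.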

Additional observations from a re-analysis of the deposited data

Results flagged for a closer look

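In 8 of 56 groups of 4 libraries (14 genes in 4 groups), 1 library lay far from the other 3 by Dixon's criterion. All 8 were line 4 of a genotype. In Cdk8-deficient DMSO libraries these were Ccng1 at 268 CPM (the others 86.7 to 117), Phlda3 at 16.02 CPM (0.188 to 1.22) and Zmat3 at 203 CPM (19.2 to 39.4). In Cdk8-deficient Senexin B libraries they were Phlda3 at 13.8 CPM (0.233 to 1.04), Zmat3 at 170 CPM (8.53 to 19.3) and Bax at 76.2 CPM (33.8 to 40.8). In wild-type lines they were Zmat3 with Senexin B at 150 CPM (14.98 to 30.9) and Cdkn2a in DMSO at 7.84 CPM (126 to 148). The libraries of a line are not independent, nor are genes of one library. Dixon's criterion is met by about 1 of 20 groups of normally distributed values. CPM were not log-transformed here and the share over all genes was not computed, so the 8 groups have no background.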

How the results depend on the processing

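None of the 10 genes passed the limits in any comparison under any alternative, and RLE size factors changed no direction or count beyond 1.5 times. The number of genes past the limits for genotype in DMSO was 1, with 21 by DESeq2, 0 with the replicate block, 0 with at least 10 counts in every library and 0 without any 1 library. For genotype with Senexin B it was 0, with 3 by DESeq2 and 1 each without a filter, at an adjusted p of 0.1 and with all 16 libraries in one fit. For Senexin B it was 0 in wild-type lines (45 with the replicate block, 18 by DESeq2, 3 without a filter), 0 in Cdk8-deficient lines (7 with the block), and 134 over 8 lines (40 with at least 10 counts in every library, 0 without the replicate block, 80 to 178 without 1 line; 80 without wild-type line 3 and 88 without wild-type line 4). The number of the 10 genes at an unadjusted p under 0.05 rose from 0 to 2 with the block for Senexin B in Cdk8-deficient lines and went from 2 to 0 over 8 lines without it. Without 1 library it ran from 0 to 2 for genotype in DMSO (3.59% to 10.6% of all genes in these fits) and from 0 to 1 for genotype with Senexin B (1.1% to 2.97%), for Senexin B in wild-type lines (2.55% to 7.88%) and in Cdk8-deficient lines (1.01% to 3.45%). Without 1 line it ran from 2 to 3 over 8 lines (13.4% to 17.4%), where Atm joined Zmat3 and Aen without wild-type line 3 or line 4. The median log2 fold change of the 10 genes for Senexin B then ran from -0.27 to 0.18 in wild-type and from -0.29 to 0.14 in Cdk8-deficient lines. In the Senexin B fits by genotype the lines were not paired. The other library of the line stayed in, so its level entered 1 side of the comparison only. With the line as a block and all libraries, Zmat3 was at -0.67 ± 0.18 (SE) in Cdk8-deficient lines. Causes of the shifts were not tested.

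The replicate block turned the direction of Phlda3 (-0.95) and Tnfrsf10b (-0.25) for genotype in DMSO and of Trp53 (-0.016), Phlda3 (-0.018) and Tnfrsf10b (0.13) for Senexin B in wild-type lines; it changed no call of the 10 genes. Other turns were Tnfrsf10b with summed libraries (-0.028), Trp53 without a filter (-0.0088) and Trp53inp1 without both libraries of wild-type line 1 (0.12). The mean of the 6 targets in Cdk8-deficient line 1 was -1.26 with a pseudocount of 0.1. Across genotypes a shared number names different lines, whose deviations in DMSO correlated at -0.15 to 0.256. Lines of different number were not compared across genotypes.

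Log2 fold changes that turned when 1 library or line was left out had these ranges. For genotype in DMSO: Trp53 -0.32 to 0.043, Mdm4 -0.093 to 0.18, Atm -0.086 to 0.22, Ccng1 -0.19 to 0.49, Phlda3 -2.17 to 0.73, Zmat3 -1.15 to 0.99, Tnfrsf10b -0.44 to 0.92, Aen -0.36 to 0.14. For genotype with Senexin B: Trp53 -0.33 to 0.059, Mdm2 -0.24 to 0.065, Atm -0.083 to 0.23, Ccng1 -0.53 to 0.26, Phlda3 -2.93 to 0.57, Zmat3 -1.85 to 1.25, Tnfrsf10b -0.36 to 0.27, Aen -0.13 to 0.091. For Senexin B in wild-type lines: Trp53 -0.22 to 0.18, Mdm4 -0.17 to 0.093, Ccng1 -0.19 to 0.29, Phlda3 -0.54 to 0.52, Zmat3 -1.40 to 0.63, Tnfrsf10b -0.43 to 0.74. For Senexin B in Cdk8-deficient lines: Trp53 -0.22 to 0.16, Mdm2 -0.19 to 0.10, Ccng1 -0.75 to 0.27, Phlda3 -3.16 to 2.23, Zmat3 -2.24 to 1.02, Tnfrsf10b -0.72 to 0.20. Over 8 lines: Trp53 -0.074 to 0.0043, Tnfrsf10b -0.17 to 0.10. For the interaction: Trp53 -0.13 to 0.086, Atm -0.099 to 0.16, Zmat3 -0.71 to 0.25, Tnfrsf10b -0.80 to 0.095, Aen -0.056 to 0.23, Trp53inp1 -0.35 to 0.73. Where a line kept 1 library only, as in Senexin B by genotype, its level entered 1 side of an unpaired comparison. That library was assumed to vary like the others.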

Other observations

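Wild-type line 4, in which Cdkn2a was at 7.84 and 9.72 CPM, also had no read of Cdkn2b, the neighbouring gene that encodes the CDK inhibitor p15INK4B, in either library. In the other 14 libraries Cdkn2b was at 3.22 to 19.6 CPM and Cdkn2a at 75.3 to 198 CPM. Mtap, the next gene on the other side, was at 165 and 222 CPM in this line and at 74.4 to 215 CPM in the others. Cdkn2b and Mtap were looked up after the values of Cdkn2a were seen.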
